A study of Homo sapiens with 78 samples.

Results

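The 10 genes described here are markers that place a melanoma cell between the pigmented melanocyte state and a dedifferentiated, invasive state, and they were measured in single A375 cells. They were chosen by name from 58388 genes: the transcription factors SOX10, SOX9 and MITF, the glial and neural crest marker S100B, the pigment genes PMEL, MLANA, TYR and DCT, the receptor tyrosine kinase AXL and the surface proteoglycan CSPG4. Gene positions are given in GRCh38. The estimated counts and the TPM of all Ensembl transcripts of each gene were summed in each well. All 10 genes had counts in at least 1 A375 well.

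A375 is an adherent human melanoma cell line and Jurkat is a human T cell leukemia cell line, here a clone, which served as the background that should lack melanocyte transcripts. Live cells were sorted one per well by FACS, A375 in PBS after staining for CD47 and Jurkat in lysis solution after staining for CD81, so cell line, growth medium, stain and sort buffer cannot be told apart. Total RNA libraries were made with SMARTer Stranded Pico Input v2 reagents (kit #634413) or SMART-Seq Stranded reagents (kit #634444), which gave 21 A375 wells and 18 Jurkat wells with each of them. No culture is named for any cell and no treatment is named for either line, so each cell line and kit is 1 sample, wells are not replicates of a condition, and no p-value is given.

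Between 146 and 1921840 counts per A375 well fell on protein-coding genes, and between 290371 and 1066300 per Jurkat well. No A375 well lay between 31670 and 222613 such counts. The 11 A375 wells below 100000 counts, 6 with kit #634413 and 5 with kit #634444, were used in sums over wells but not for single-well levels, which left 15 and 16 A375 wells. In these 31 wells, the summed level of 14 T cell markers reached at most 79.5 counts per 1000000 protein-coding counts (CPM), against 2113 to 5888 CPM in the 36 Jurkat wells, and CD3D and CD3E had 0 counts. The summed level of 10 markers of adherent lines was 1343 to 5403 CPM in A375 and 3.54 to 518 CPM in Jurkat, where CAV1 had 0 counts.

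In melanocytes, SOX10 and PAX3 drive MITF, and MITF in turn activates the genes of the melanosome, the organelle that makes and carries pigment. Melanoma cells can leave this state. Cells with low MITF and high AXL are known as invasive and often tolerate inhibitors of the MAPK pathway, and loss of SOX10 with gain of SOX9 marks a further step away from the melanocyte lineage. MITF binds the E-box CATGTG, whose extended form TCATGTG is called the M-box, in the promoters of pigment genes, and a cAMP response element (TGACGTCA) lies in the promoter that melanocytes use for MITF.

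The 3 windows of these genes that hold CATGTG in a pigment gene or TGACGTCA in MITF are shown, to let the letters be read beside the levels. Each line gives the 250 bases before a RefSeq start in GRCh38.p14, 5′ to 3′ on the strand of the gene, with CATGTG, on either strand, or TGACGTCA in capitals. The first is the TYR promoter at chr11:89177625-89177874 (plus strand), the second the DCT promoter at chr13:94479683-94479932 (minus strand) and the last the melanocyte promoter of MITF at chr3:69936342-69936591 (plus strand).
TYR: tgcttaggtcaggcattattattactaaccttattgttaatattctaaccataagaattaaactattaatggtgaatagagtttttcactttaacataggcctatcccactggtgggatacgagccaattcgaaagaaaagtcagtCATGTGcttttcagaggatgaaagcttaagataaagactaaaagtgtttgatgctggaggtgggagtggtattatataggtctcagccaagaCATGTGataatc
DCT: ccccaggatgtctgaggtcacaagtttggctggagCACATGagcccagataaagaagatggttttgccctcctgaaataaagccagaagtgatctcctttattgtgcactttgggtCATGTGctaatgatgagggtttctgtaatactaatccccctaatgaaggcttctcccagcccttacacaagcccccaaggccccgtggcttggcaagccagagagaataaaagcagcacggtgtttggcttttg
MITF: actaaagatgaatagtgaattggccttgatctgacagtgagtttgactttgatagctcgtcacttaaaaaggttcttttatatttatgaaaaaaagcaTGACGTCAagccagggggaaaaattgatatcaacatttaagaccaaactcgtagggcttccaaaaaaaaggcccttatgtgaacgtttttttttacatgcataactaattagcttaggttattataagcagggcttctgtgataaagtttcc

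CATGTG occurred 2 times in the TYR window, 104 and 12 bases before the start, and 2 times in the DCT window, 215 and 134 bases before it. Both DCT matches and 1 of the TYR matches were the longer TCATGTG. On either strand, 9.42% of 35116 promoter windows of this length held CATGTG, 2.52% held TCATGTG and 1.65% held TGACGTCA, so each of these matches is a description of the letters only. RefSeq windows were used for 6 of the 10 genes, 10 windows in all, and not for PMEL, SOX10, SOX9 and S100B. CATGTG did not occur in the MLANA window or before the other DCT start, at chr13:94549407-94549656, nor in the 3 MITF windows, the CSPG4 window or that of the first AXL start. It also occurred 79 bases before the second start of AXL. CACGTG, the other E-box form bound by MITF (6.34% of windows), and the AP-1 site TGACTCA (4.20%) occurred in 0 of the 10 windows. The SOX core ACAAT, in 24.6% of all windows, occurred in 5 of them.

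SOX10, AXL and CSPG4 were present in every deep A375 well and the pigment genes in very few. These 3 genes had 3 or more counts, the limit taken for detection, in 15 of 15 wells with kit #634413 (exact 95% confidence interval of the share 78.2% to 100%) and in 16 of 16 with kit #634444 (79.4% to 100%). MITF was detected in 11 of 15 (44.9% to 92.2%) and 11 of 16 wells (41.3% to 89.0%). Of the pigment genes, PMEL was detected in 1 and 0 wells, and MLANA, TYR and DCT each in 1 well with each kit. The intervals of shares treat wells as independent draws, and those of ratios, called counting intervals, treat reads as independent. PCR reads without molecular identifiers are not independent molecules, and no separate cultures are named for the wells. The intervals therefore cover neither the spread from PCR nor differences between cultures.

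**Figure D1:**
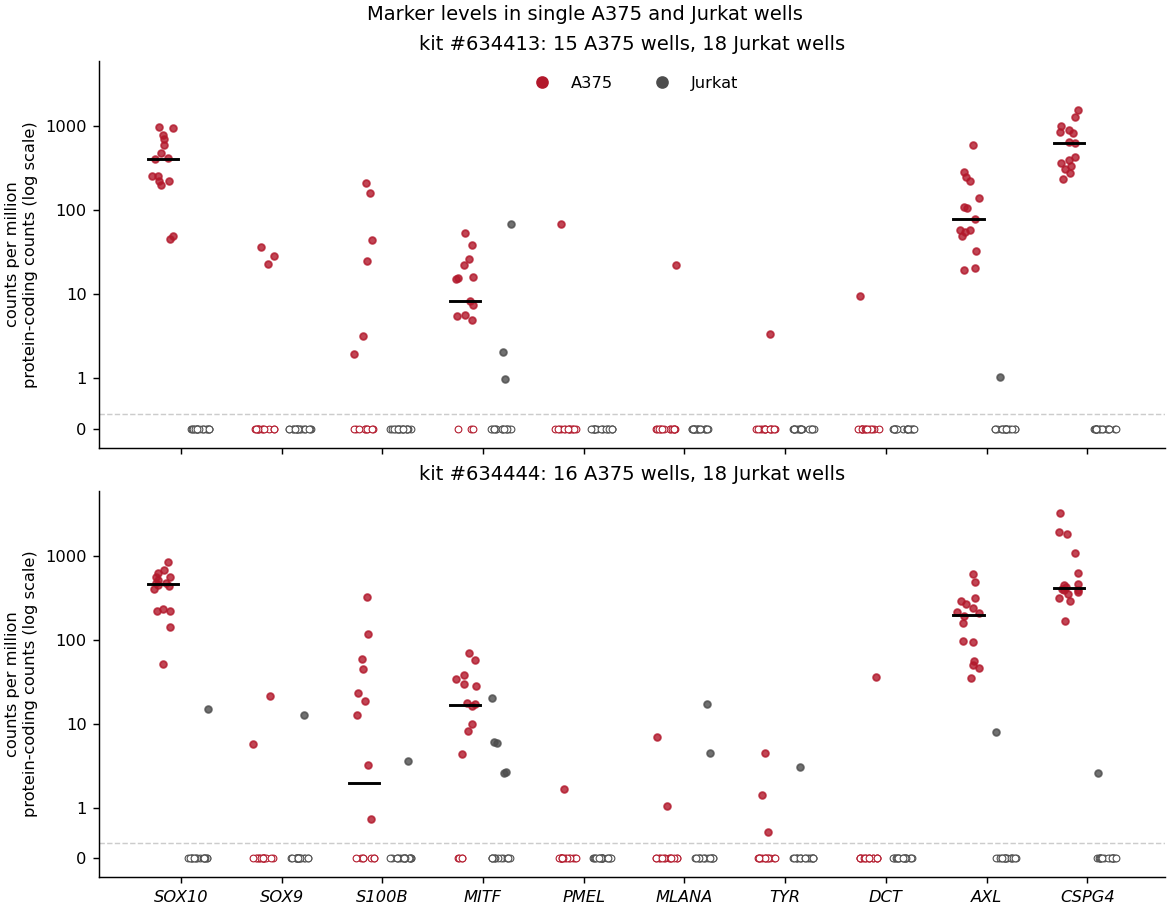
Level of each of the 10 genes in single wells, in CPM on a log axis, with wells at 0 drawn as open points under the dashed line. Red points are A375 wells, grey points Jurkat wells and black bars medians above 0. SOX10, AXL and CSPG4 lie above 0 in all 31 A375 wells, whereas the 4 pigment genes lie at 0 in nearly all of them.

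SOX10 (ENSG00000100146, chr22:37970686-37987422, minus strand), the neural crest transcription factor that keeps melanocyte and glial identity, had the highest level of the 10 genes per unit of length. With kit #634413 its TPM ranged over wells from 8.50 to 176 around a median of 88.2, and with kit #634444 from 10.5 to 188 around a median of 86.3. In CPM, the lowest, median and highest values were 46.0, 406 and 995 and, with the second kit, 50.8, 460 and 849. Wells 2 and 10 of kit #634413 and well 20 of kit #634444 stood low, at 49.9, 46.0 and 50.8 CPM, and the next lowest well was at 141 CPM. Over the 31 wells, the median SOX10 TPM of 86.9 was above that of 97.1% of 19770 protein-coding genes. In Jurkat, SOX10 had 0 counts in the 18 wells of kit #634413 and 6 counts, all in 1 well, with kit #634444, so the 2 lines did not overlap.

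SOX9 (ENSG00000125398, chr17:72121020-72126416, plus strand), the related factor that takes the place of SOX10 in dedifferentiated melanoma, was found beside SOX10 and not in its place. It was detected in 3 wells of kit #634413, with 31, 45 and 41 counts (36.8, 28.9 and 23.1 CPM), and in 2 wells of kit #634444, with 12 and 11 counts (21.6 and 5.72 CPM). In these 5 wells SOX10 had between 290 and 924 counts and was above SOX9 in TPM in each. SOX10 was detected in all 31 wells, so no well could have SOX9 without SOX10: 26 of 31 wells had SOX10 alone, and 0 had neither. The wells with SOX9 were deeper, with a median of 1557830 protein-coding counts against 554071 in the other 26, and the part of depth in this split was not tested. The median level of SOX10 was 421 CPM in the wells with SOX9 and 442 CPM in those without, that of AXL 285 and 94.7 CPM, that of CSPG4 1022 and 416 CPM, and that of MITF 27.8 and 9.06 CPM. SOX9 has 1 transcript in the annotation, and its antisense gene SOX9-AS1 had 49 counts in A375 and 44 in Jurkat, which stranded quantification kept apart from it.

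S100B (ENSG00000160307, chr21:46598604-46605208, minus strand), a calcium-binding protein used as a melanoma marker, varied more from well to well than SOX10. It was detected in 5 of 15 wells with kit #634413 (11.8% to 61.6%) and in 8 of 16 with kit #634444 (24.7% to 75.3%). Its highest level was 214 CPM with kit #634413, in well 19, and 322 CPM with kit #634444, in well 12, while the median was 0 and 1.96 CPM. The coefficient of variation over the 31 wells was 2.17 for S100B and 0.592 for SOX10. The wells with S100B were not deeper, with a median of 543538 protein-coding counts against 602850 in the other 18. In Jurkat, S100B had 0 and 2 counts in all.

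MITF (ENSG00000187098, chr3:69739456-69968336, plus strand), the master regulator of the melanocyte lineage, was detected in most A375 wells at a low level. Its lowest, median and highest values were 0, 8.31 and 53.3 CPM with kit #634413 and 0, 16.9 and 69.6 CPM with kit #634444, or 7.63 and 6.63 TPM at the median. SOX10 was higher than MITF in TPM in 30 of 31 wells, and well 2 of kit #634413, among the wells with least SOX10, was the exception with 35.7 TPM of MITF and 9.56 TPM of SOX10. When each well was thinned to 100000 protein-coding counts, MITF was expected at 3 or more counts in 21.7% and 33.8% of wells, against 98.3% and 99.5% for SOX10, so a well without MITF at this depth does not show a cell without MITF. The wells with MITF had a median of 658474 protein-coding counts and those without 432808.

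The MITF counts were assigned to transcripts with several starts, which bears on what they measure. The 4 transcripts that start far upstream held 108 of 190 counts with kit #634413 and 163 of 232 with kit #634444, and the 6 transcripts that start at the melanocyte promoter printed above held 74.3 and 30.3 counts. Of these, MITF-215, a transcript of 1074 bases, took 65.3 and 16.6 counts. The longest transcripts of the melanocyte start, MITF-205 and MITF-201, both coding, had 0 counts in A375 with both kits. Counts on transcripts of the melanocyte start reached 3 or more in 5 of 15 and 5 of 16 wells, and counts on those of the upstream starts in 8 and 9 wells. MITF-211 (ENST00000461511), an upstream transcript of 574 bases with no annotated coding sequence, took 84 and 86.7 of the counts. It starts at position 69739474 and ends at position 69752385 of chromosome 3, before the exons that the coding transcripts share. Since Kallisto assigns reads among overlapping transcripts, this split is an estimate and does not measure the use of each promoter.

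In Jurkat, the MITF counts were nearly all on that transcript. MITF had 48 counts in the 18 Jurkat wells of kit #634413, of which 45 lay in well 18, and 15 counts with kit #634444, of which 8 lay in well 6. MITF-211 held 48 of the 48 and 14 of the 15 counts, and the melanocyte start held 0 in all 36 wells. Well 6 of kit #634444 also held the 6 Jurkat counts of SOX10. In well 18 and well 6, the 10 adherent line markers summed to 116 and 167 CPM, the 9th and 12th highest of 18 wells, 2 of the 10 markers were detected in each, CAV1 and TIMP1 had 0 counts, and the T cell markers summed to 2766 and 2968 CPM.

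**Figure D2:**
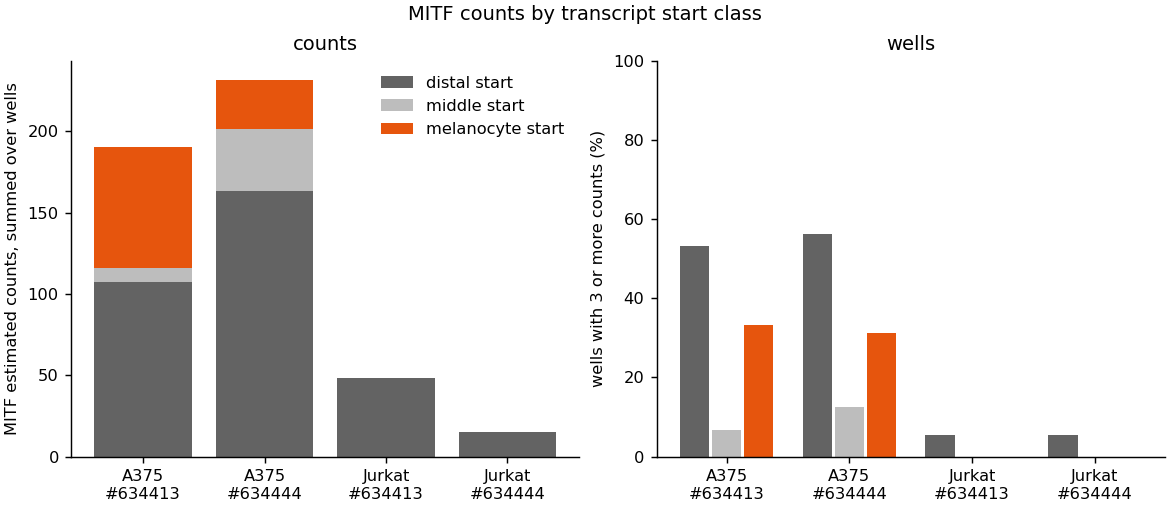
MITF estimated counts summed over all wells of each cell line and kit (left) and the percent of deep wells with 3 or more counts (right), split by where the transcripts start. The distal class holds the 4 upstream starts, the middle class 5 starts and the melanocyte class the 6 starts at the melanocyte promoter, which had 74.3 and 30.3 counts in A375 and 0 counts in Jurkat.

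The pigment genes that MITF activates were close to absent. PMEL (ENSG00000185664, chr12:55954105-55973317, minus strand), which builds the fibrils of the melanosome, had 72 counts in well 1 of kit #634413 and 1 count in the other A375 wells of both kits. MLANA (ENSG00000120215, chr9:5890889-5910606, plus strand), the melanosome protein known as Melan-A, had 19 counts in well 3 of kit #634413 and 7.03 with kit #634444, 5 of them in well 7. TYR (ENSG00000077498, chr11:89177875-89295759, plus strand), the rate-limiting enzyme of melanin synthesis, had 6 counts in well 17 of kit #634413 and 8 with kit #634444, 6 of them in well 4. DCT (ENSG00000080166, chr13:94436811-94479682, minus strand), which acts after TYR in the same pathway, had 17 counts in well 17 of kit #634413 and 8 counts in well 10 of kit #634444.

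No pigment gene was shared by most wells, and each was carried by very few. In all, 6 of the 31 wells had any of the 4 genes at 3 or more counts, and 1 had 2 of them, the deepest well of kit #634413. The other wells with a pigment gene ranked 4th and 7th by depth of the 15 wells of kit #634413 and 2nd, 5th and 16th of the 16 wells of kit #634444. SOX10, AXL and CSPG4 were detected in all 6 of these wells, and MITF in 5. The 14 T cell markers summed to 59.0 and 76.4 CPM in wells 7 and 10 of kit #634444, which carried MLANA and DCT, against a median of 8.67 CPM over the 16 wells of that kit, where 76.4 was the highest. They summed to at most 5.20 CPM in the other 4 wells, and their part in these detections was not tested. All TYR counts lay on TYR-202 (ENST00000526139), which has no annotated coding sequence, and 6 of the 17 DCT counts of kit #634413 lay on DCT-203, a transcript with a retained intron. Of the A375 MLANA counts of kit #634444, 71.1% lay on MLANA-205, a transcript of 501 bases with no annotated coding sequence.

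The background in Jurkat was of the same order for part of this group. MLANA had 0 and 16 counts in Jurkat, 14 of them in 1 well of kit #634444, and TYR had 0 and 1. PMEL and DCT had 0 counts in all 36 Jurkat wells (0 of 36, an exact 95% upper bound of 9.74% of wells). With kit #634444 the MLANA ratio of A375 over Jurkat was 0.437, with a counting interval of 0.152 to 1.12 that includes 1.

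The share of pigment genes in the summed TPM of the 10 genes was 0 at the median with both kits. It was above 0 in 3 of 15 and 5 of 16 wells, with a highest value of 6.46% and 6.86%. In TPM summed over wells, the 4 pigment genes held 0.728% and 0.490% of the total, SOX10 held 45.2% and 41.8%, CSPG4 21.1% and 22.3%, AXL 14.1% and 17%, S100B 10.1% and 11.9%, and MITF 8.30% and 6.42%, with kits #634413 and #634444 in turn. Short transcripts weigh more per count in TPM, among them MITF-211 and MLANA-205. With kit #634444, MLANA alone held 0.344% of the total.

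**Figure D3:**
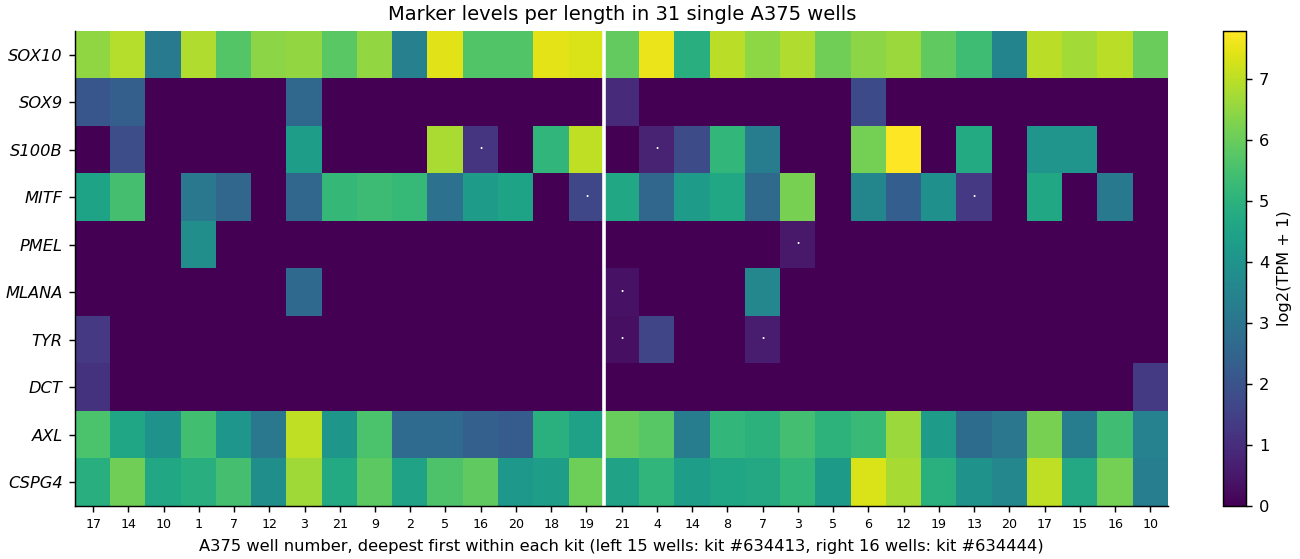
Level per length, as log2(TPM + 1), of the 10 genes in the 31 A375 wells with at least 100000 protein-coding counts, ordered from the deepest well within each kit. Dots mark values from fewer than 3 counts. The SOX10, AXL and CSPG4 rows are filled in every well, MITF in most, and the PMEL, MLANA, TYR and DCT rows hold 6 wells with 3 or more counts of any of them.

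AXL (ENSG00000167601, chr19:41219223-41261766, plus strand), the receptor for the ligand GAS6 that marks invasive melanoma cells, was present in every deep well together with SOX10. Its lowest, median and highest levels were 19.4, 78.7 and 603 CPM with kit #634413 and 34.7, 198 and 602 CPM with kit #634444. In TPM, the medians were 16.3 and 32.8, and over both kits the median of 22.8 TPM was above that of 84.0% of protein-coding genes. AXL had 1 count in all Jurkat wells of kit #634413 and 3 counts with kit #634444. AXL-203 (ENST00000593513), which starts at position 41226755 of chromosome 19 downstream of the first start at 41219223, took 1065.5 of 1986 counts with kit #634413 and 422 of 2387 with kit #634444.

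CSPG4 (ENSG00000173546, chr15:75674322-75712848, minus strand), the melanoma-associated chondroitin sulfate proteoglycan also known as NG2, had the most counts of the 10 genes, but its transcript of 8290 bases is long. Its lowest, median and highest levels were 238, 634 and 1567 CPM with kit #634413 and 166, 414 and 3232 CPM with kit #634444. The medians in TPM were 29.2 and 25.0, below those of SOX10. In Jurkat, CSPG4 had 0 and 1 counts. CSPG4 has pseudogenes of near-identical sequence, which together held 173 counts in A375 and 498 in Jurkat, against 15142 and 1 for CSPG4 itself.

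The order of the genes per length varied between single wells. SOX10 was above CSPG4 in TPM in 23 of 31 wells and below it in 8, with a ratio from 0.346 to 9.0 around a median of 2.47. CSPG4 was above AXL in 20 wells and below it in 11, with a ratio from 0.346 to 13.6 around a median of 1.59, so neither pair of neighbours was separated in every well. SOX10 was above AXL in 28 of 31 wells. AXL was above MITF in 23 of 31 wells and above S100B in 23 of 31.

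MITF and AXL, which mark opposite states in many melanoma lines, were found in the same wells. Both were detected in 22 of 31 wells, AXL alone in 9, and MITF alone in 0. Since AXL was detected in all 31 wells, these numbers follow from the MITF detections and cannot show whether the genes go together. The MITF detections count all its transcripts, MITF-211 among them. Spearman's rho of their CPM over wells was 0.0430 with kit #634413 (n = 15) and 0.560 with kit #634444 (n = 16). These values describe wells that share a kit, come from no named separate cultures and differ in depth, and the rho of AXL itself with depth was 0.464 and 0.391. SOX10 and AXL had a rho of 0.186 and 0.421, CSPG4 and AXL one of 0.532 and 0.456, and MITF and SOX10 one of -0.287 and 0.213.

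**Figure D4:**
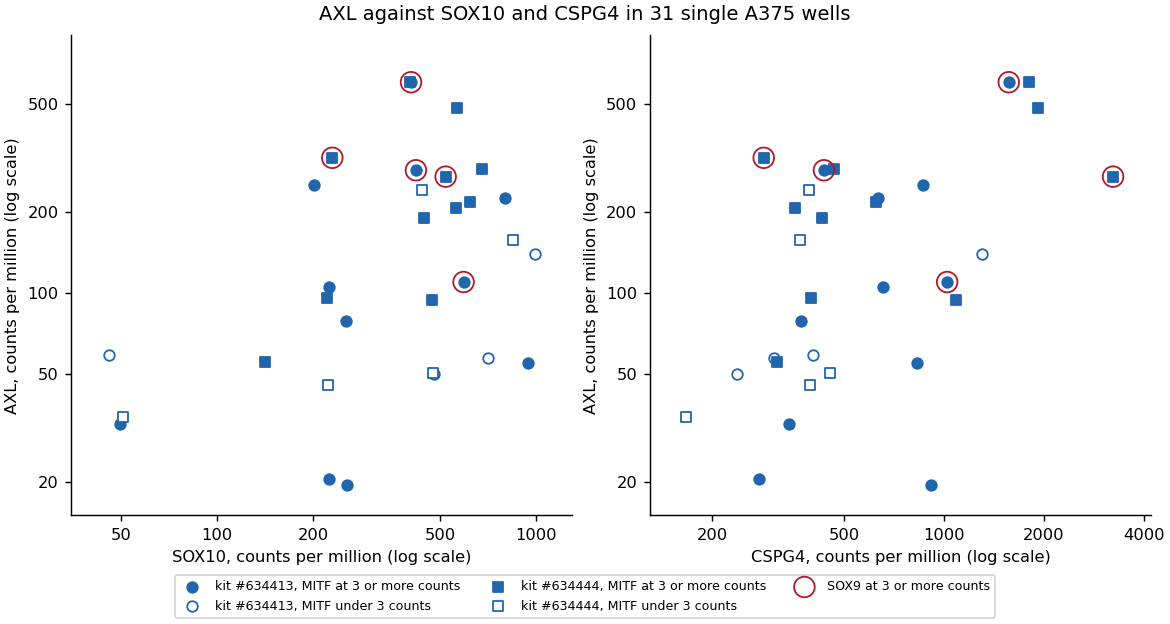
AXL against SOX10 (left) and against CSPG4 (right) in the 31 deep A375 wells, in CPM on log axes. Filled symbols had 3 or more MITF counts and red rings 3 or more SOX9 counts. Wells with MITF are spread over the whole range of AXL, and AXL was detected in all 31 wells.

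For the 5 genes detected in at least 10 of the deep A375 wells, the genes with the most similar pattern were sought among 10157 genes, by Spearman's rho of CPM ranked within kit over the 31 wells. The highest values were those of ANXA5, CCND1 and AMOTL2 for AXL (0.747, 0.706 and 0.704), of WWP2, LPCAT2 and SOX6 for CSPG4 (0.750, 0.683 and 0.666) and of SHROOM4, RHBDF1 and PRR3 for SOX10 (0.672, 0.666 and 0.602). For MITF they were ABHD16A, EIF1B and POLH (0.681, 0.673 and 0.646), and for S100B they were RNF125, HAPLN1 and HMCN1 (0.796, 0.773 and 0.763). These are the highest of 10157 values each, and among the 5 genes themselves the highest was 0.490, between AXL and CSPG4.

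The comparison of summed counts between A375 and Jurkat gave the size of these differences with each kit. A gene was called at a ratio of 4 or more with at least 50 counts in both lines together, a sum below 3 counts being set to 3 for the call. With kit #634413, 7 of the 10 genes were called higher in A375, against 24.0% of 16411 genes. With kit #634444, 5 were called higher, against 20.8% of 15659 genes, and 0 of the 10 were lower with either kit, against 12.4% and 9.27% of genes. The genes called with both kits were MITF, SOX10, AXL, S100B and CSPG4, against 15.8% of the 14543 genes with at least 50 counts with each kit that were higher with both and 6.37% that were lower. The MITF call with kit #634413 was lost when counts were scaled to all counts (3.96), with TMM (3.79) or with DESeq2 size factors (3.84), and with TPM averaged over wells. SOX9 and PMEL were called with kit #634413 alone. MLANA, TYR and DCT had too few counts with both kits, and SOX9 and PMEL with kit #634444.

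Where Jurkat held any counts, the ratio is of the counts as they stand, and where it held 0 it is a lower bound at 3 counts over the group. SOX10 had 5241 counts in A375 and 0 in Jurkat with kit #634413, at least 1847-fold higher. With kit #634444 it had 4253 and 6 counts, a ratio of 708 (95% counting interval 325 to 1929), and without the 1 Jurkat well that held all 6, well 6, it was at least 1362-fold higher. CSPG4 had 8276 and 0 counts with kit #634413, at least 2917-fold higher, and a ratio of 6855 (1230 to 270778) with kit #634444, where Jurkat held 1 count. With that sum set to 3 it was 2285. AXL ratios were 2100 (376 to 82983), from 1 Jurkat count, or 700.0 with that sum set to 3, and 794 (271 to 3855) with kit #634444. S100B was at least 65.9-fold higher with kit #634413 and had a ratio of 163 (44.8 to 1353) with kit #634444, or 109 with the 2 Jurkat counts set to 3. Without the A375 well with most S100B, well 5 of kit #634413 and well 12 of kit #634444, these values at 3 Jurkat counts were 36.9 and 55.4.

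For the low genes, some of the ratios rested on single wells. MITF had a ratio of 4.19 (3.04 to 5.87) with kit #634413 and 15.4 (9.17 to 28.0) with kit #634444. Without well 18 of Jurkat the first became 63.7, and without well 6 of Jurkat the second became 31.8. Without well 14 of A375, which held 60.4 of the MITF counts, the first was 3.26. Without the A375 well with most MITF counts of kit #634444, the second was 14.5. Without MITF-211, Jurkat held 0 MITF counts with kit #634413, and A375 was at least 37.4-fold higher. With kit #634444, the 1 Jurkat count left was set to 3, which gave 48.2. SOX9 had 117 and 0 counts with kit #634413, at least 41.2-fold higher, or 29.0-fold without the A375 well with most counts. With kit #634444 it had 23 and 7 counts, a ratio of 3.28 (1.36 to 9.05). PMEL was at least 25.4-fold higher with kit #634413, all from 1 well, and with that well left out no counts remained.

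Between kits, the summed counts of SOX10 and CSPG4 lay close to each other. The ratio of kit #634444 over kit #634413 in A375 was 0.966 (0.928 to 1.01) for SOX10 and 0.988 (0.957 to 1.02) for CSPG4. The CSPG4 ratio was 0.770 without well 6 of kit #634444, which held 1798 of the 6866 counts, and the median well of that kit was also lower, at 414 against 634 CPM. It was 1.43 (1.35 to 1.52) for AXL and 1.45 (1.20 to 1.77) for MITF. By a ratio of 2 or more in either direction, 3 of the 10 genes were called, SOX9 (0.234), PMEL (0.0165) and S100B (2.08), against 19% of 16337 genes. All 3 were carried by few wells: without well 12 of kit #634444, with 169 of the 327 counts of S100B, its ratio was 1.06, and without well 5 of kit #634413 it was 3.72. PMEL had 1 count in all without well 1 of kit #634413.

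The genes around these markers were described with lists of the same pathways, by the same ratio of 4 and the same background. Of 14 further pigmentation genes, 4 were higher in A375 with kit #634413 (against 24.0% of all genes), 2 with kit #634444 (20.8%) and 2 with both (15.8%). Of the 14, 9 had under 50 counts with at least 1 kit and could not be called with it. The shares of all genes are over genes with at least 50 counts, so the numbers out of 14 are not on the same base. The 2 called with both were GPNMB, a glycoprotein of melanosomes and lysosomes, with ratios of 38.2 and 29.7, and RAB38, a small GTPase of melanosome biogenesis. RAB38 was at least 65.2-fold higher with kit #634413. With kit #634444 its ratio was 4.06 (3.04 to 5.51), from 58 Jurkat counts, so this call lies at the limit of 4. GPNMB was detected in 30 of 31 wells. MYO5A, the motor that carries melanosomes but also other cargo, was detected in 30 wells with ratios of 3.51 and 1.69. SLC24A5, an ion exchanger of melanosomes, and GPR143, a receptor of the same organelle, had 0 counts in both lines.

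Of 12 neural crest and melanocyte regulators, 7 were higher in A375 with both kits, against 15.8% of all genes, and 1 was lower, against 6.37%. SOX5, another SOX factor of this lineage, had median levels of 172 and 108 TPM and ratios of 24.7 and 71.9. ERBB3, the neuregulin receptor that SOX10 activates, had median levels of 181 and 107 TPM and ratios of 440 (282 to 732) and 2860 (791 to 23623), the last with 2 counts in Jurkat. NES, the intermediate filament nestin, was at least 2571-fold and 1030-fold higher. PAX3, which acts with SOX10 on MITF, was at least 186-fold higher with kit #634413 and had a ratio of 87.9 (29.7 to 429) with kit #634444. SOX5, ERBB3 and NES were detected in all 31 wells and PAX3 in 22. Other genes of the list were rare in A375, and 4 of the 12 had under 50 counts with at least 1 kit. NGFR, the nerve growth factor receptor, was detected in 3 of 31 wells and SNAI2 in 1. NGFR had 53 counts in A375 and 28 in Jurkat with kit #634413, which was not called, and 19 and 0 with kit #634444. The gene lower with both kits was LEF1, which T cells also use, with ratios of 0.0579 and 0.0327, and KIT, the receptor for stem cell factor, had 0 and 1 counts in A375.

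Of 20 genes of the dedifferentiated and invasive state, 15 were higher in A375 with both kits, against 15.8% of all genes, and 0 were lower with both, against 6.37%. TNC, the matrix protein tenascin C, was at least 4520-fold and 4165-fold higher and was detected in all 31 wells, with median levels of 82.3 and 112 TPM. FOSL1, an AP-1 subunit, was at least 811-fold and 612-fold higher, and CCN1, a matrix protein induced by YAP, at least 610-fold and 621-fold. THBS1 had ratios of 559 and 163, and NRP1, a co-receptor for semaphorins and VEGF, 1951 (540 to 16115) and 63.0. JUN had ratios of 0.123 and 0.585 and ZEB1 of 0.485 and 0.556. Many of these genes are also made by adherent cells of other tissues, and 10 of 10 adherent line markers were likewise higher with both kits, so invasive state and adherent growth cannot be told apart with Jurkat as the only other line.

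Of the AXL partners, 0 of 4 were higher with both kits. GAS6, the ligand, had 96 and 64 counts in A375 and 0 and 20 in Jurkat, and was detected in 14 of 31 A375 wells. TYRO3, the sister receptor, was detected in 25 wells with ratios of 1.89 and 4.77. MERTK, the other member of that family, had 0 counts in A375 with both kits. Among 6 relatives of MITF and the SOX factors, TFE3 had ratios of 1.03 and 2.0 and was detected in all 31 wells, and SOX4 was lower with both kits, at 0.0476 and 0.0171.

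**Figure D5:**
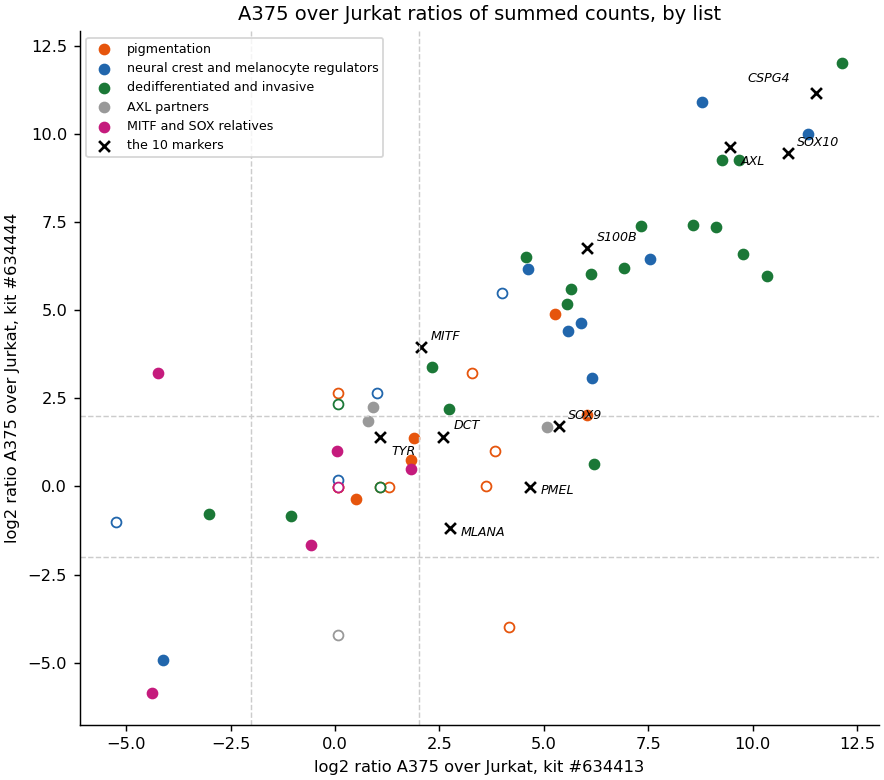
Log2 ratio of A375 over Jurkat in counts summed over wells, with kit #634413 on the horizontal axis and kit #634444 on the vertical axis, for the 10 markers (crosses) and the genes of 5 pathway lists (points, open where a kit had under 50 counts), with sums below 3 counts set to 3. Dashed lines mark a ratio of 4 in either direction. SOX10, CSPG4 and AXL lie at the upper right among the neural crest and invasive genes, and PMEL, MLANA, TYR and DCT lie below a ratio of 4 with kit #634444.

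The 11 shallow A375 wells held few of these transcripts. CSPG4 had up to 87 counts and SOX10 up to 19 in single shallow wells, AXL up to 7, and the other 7 genes had 0 counts in all of them. In the 31 deep A375 wells, between 3 and 7 of the 10 genes were detected per well, whereas 17 of 18 and 14 of 18 Jurkat wells had none of the 10.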

How the data were processed

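Single A375 and Jurkat cells were grouped by the cell line and reagent kit in their labels. The authors removed 3 bases from read 2 with cutadapt, assigned the reads to Ensembl v91 transcripts with stranded Kallisto (version 0.43.1), and deposited estimated counts without normalization. The deposited TPM were computed by Kallisto from the same counts and the effective transcript lengths; they were used to compare genes. Reads on introns were not analysed here.

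Transcripts were summed to genes with GENCODE v44, which shares the hg38 build. CPM are per 1000000 estimated counts on protein-coding genes. Wells were kept for single-well values at 100000 or more such counts, since depth sets what is detectable. Detection meant 3 counts, and 3 counts over the group stood in for a sum of 0. Ratios have exact conditional binomial intervals, and shares have Clopper-Pearson intervals, at 95%. None of 3003 pairs of wells held identical values (0 pairs).

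Each cell line and kit is 1 sample, so wells were not tested as replicates. The ratio procedure was run on simulated Poisson counts with no added spread from PCR or between cells, so that run cannot show how it behaves with such spread. The genes and lists were chosen with earlier results of these data known. All 10 genes are named. From each list, the 3 genes with the highest summed TPM in A375 and the 3 with the largest or smallest ratio (geometric mean over kits) may be named; other names were chosen after their values were seen. The motif TGACGTCA was also added after the sequences were seen. Alternatives were other scalings, count limits and well sets (edgeR 4.0.16 TMM factors, DESeq2 1.42.0 size factors, R 4.3.3). Python 3.11.15, numpy 2.4.6, pandas 2.3.3, scipy 1.17.1 and matplotlib 3.10.9 were used.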

Additional observations from a re-analysis of the deposited data

How the results depend on the processing

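No paired analysis was possible because each cell line and kit is 1 sample and the well numbers carry no pairing. The number of the 10 genes called higher in A375 with kit #634413 was 7. It was 6 scaled to all counts, with TMM or DESeq2 size factors and with TPM averaged over wells, where MITF lay below a ratio of 4 (3.96, 3.79 and 3.84 by the 3 count scalings). It was 5 without the A375 well with most counts of each gene, where MITF (3.26) and PMEL, which then had 0 counts, were no longer called, and 9 with no minimum on counts. With kit #634444 it was 5 under all 10 alternatives. The number of detections summed over the 10 genes was 68 and 72 in the main analysis, and 52.5 and 58.6 with wells thinned to 100000 counts. The median pigment share stayed at 0 under the alternatives that give a median. The number called between kits was 3, and 2 without the top well of each gene in either kit. Leaving out a Jurkat well, a transcript or a top well of each kit, and the summed share, were chosen after seeing the data. A well without a call may hold MITF, SOX9, S100B or the pigment genes below 3 counts, and the part of depth in the missing calls was not tested.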
